A study of Sus scrofa with 36 samples.

Results

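CHEK2 and 7 other genes of the DNA damage checkpoint were followed in the cerebellum of piglets, 8 of the 31907 gene identifiers counted. They were chosen by name. CHEK2 was selected on a readout of these same piglets, because it had been reported as lower in MILK-NBW than in VEG-NBW piglets. CHEK1, ATM, ATR, BRCA1, H2AX, MDM2 and CDKN1A were added as its known partners, to ask whether they follow CHEK2 from piglet to piglet. That readout came from a diet by birth weight interaction, to which all 4 groups contribute. Every CHEK2 difference between groups, and every correlation that includes such a difference, is therefore a description and carries no test.

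Cerebellar RNA was sequenced from 36 term-born crossbred piglets (Danish landrace, Yorkshire and Duroc), 9 in each of 4 groups, in a design of 2 diets by 2 birth weights. From 3 days of age and for 3 weeks, VEG piglets drank a formula whose fat was vegetable oil, and MILK piglets one whose fat was bovine milk fat, from cream. NBW piglets had a normal birth weight (labelled NORM) and IUGR piglets were growth restricted in the womb. All of them were formula-fed and of both sexes, all received toltrazuril against coccidiosis, those with diarrhoea were given gentamicin and those lame on arrival meloxicam (the labels do not say which), and no sow-fed group is among them. The groups are thus VEG-NBW, MILK-NBW, VEG-IUGR and MILK-IUGR. The sample is bulk tissue, so fewer cells of a type and less RNA per cell cannot be told apart. Litter is not in the labels, and piglets that share a litter were treated as independent.

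DNA breaks and stalled replication forks are sensed by the kinases ATM and ATR, which phosphorylate the effector kinases CHK2 (encoded by CHEK2) and CHK1 (encoded by CHEK1) and the histone H2AX around the lesion. CHK2 and CHK1 then act on p53 and on the CDC25 phosphatases, which halts the cell cycle. CHK2 also phosphorylates BRCA1, which repairs breaks by homologous recombination. p53 in turn switches on CDKN1A, which encodes the cell cycle inhibitor p21, and MDM2, which marks p53 itself for degradation. In the cerebellum of a young animal the granule cell precursors still divide, and neurons that have stopped dividing keep the ATM branch. Most of this signalling is done by phosphorylation, which RNA counts do not measure.

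Piglets 202 (VEG-NBW), 210 (VEG-IUGR) and 213 (MILK-NBW) stood apart from their groups in the share of read pairs not assigned to a gene. It was 43.6%, 64.3% and 31.5% of their pairs, against 26.7 to 30.5% in the other 33 libraries. Pairs that were not aligned or that fit several genes are part of this share. The values below are of these 33 libraries, which leaves 8 VEG-NBW, 8 MILK-NBW, 8 VEG-IUGR and 9 MILK-IUGR piglets, and values of all 36 are given for the results that turn on them. For low RNA integrity, the paper excluded a cerebellum sample from each of VEG-NBW, VEG-IUGR and MILK-NBW, without naming the piglets. Whether these were piglets 202, 210 and 213 could not be checked. The choice of libraries here was made with earlier results on CHEK2 known, and it bears on CHEK2, as described further on. The 33 libraries held 15516541 to 23027502 counts on genes (median 18025540). Of the markers of cerebellar neurons, all 9 for granule neurons and 6 of the 7 for Purkinje cells passed the filter on low counts.

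The 8 genes differed in how well they could be measured. CHEK2 had 46 to 107 counts per library and BRCA1 48 to 122, so that both sit near the depth where counting error is a large part of the spread. ATM had 632 to 1233 counts, ATR 231 to 411, MDM2 304 to 565, H2AX 445 to 815 and CDKN1A 1973 to 4177. CHEK1 had 0 to 4 counts and no count in 10 of the 33 libraries. It did not pass the filter, so its difference between groups was not detectable at this depth, and 7 of the 8 genes were tested across all 15356 genes. Counts were compared for 1 gene across piglets and never between genes, since gene length was not taken into account.

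CHEK2 was lowest in MILK-NBW piglets and highest in VEG-NBW piglets, with both IUGR groups between them. Its normalised count, the count divided by DESeq2's size factor, was 74.3 at the lowest, 91.0 at the median and 97.5 at the highest in VEG-NBW. In MILK-NBW it was 50.4, 55.7 and 73.1, so that the highest MILK-NBW piglet lay just under the lowest VEG-NBW piglet. VEG-IUGR piglets ranged from 51.7 to 94.1 (median 65.8) and MILK-IUGR piglets from 57.8 to 86.9 (median 71.2), and each of these groups overlapped with every other group. Of the 15356 genes, 1 had all MILK-NBW piglets under all VEG-NBW piglets (0.00651%), and that gene is CHEK2, for which it was chosen.

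In log2 terms, CHEK2 differed by -0.61 (SE 0.12) for MILK-NBW relative to VEG-NBW. It was -0.35 (SE 0.12) for VEG-IUGR relative to VEG-NBW and 0.33 (SE 0.12) for MILK-IUGR relative to MILK-NBW. The diet difference was thus 0.69 (SE 0.17) higher in IUGR than in NBW piglets. Between the diets within IUGR piglets the log2 fold change was 0.08 (SE 0.12, 95% interval -0.16 to 0.31). The MILK-IUGR piglet was the higher one in 59.7% of the pairs. Sex was not used in the choice, and with the 4 groups in the model the log2 difference between males and females was 0.02 (SE 0.08, unadjusted p = 0.813 in edgeR).

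**Figure D1:**
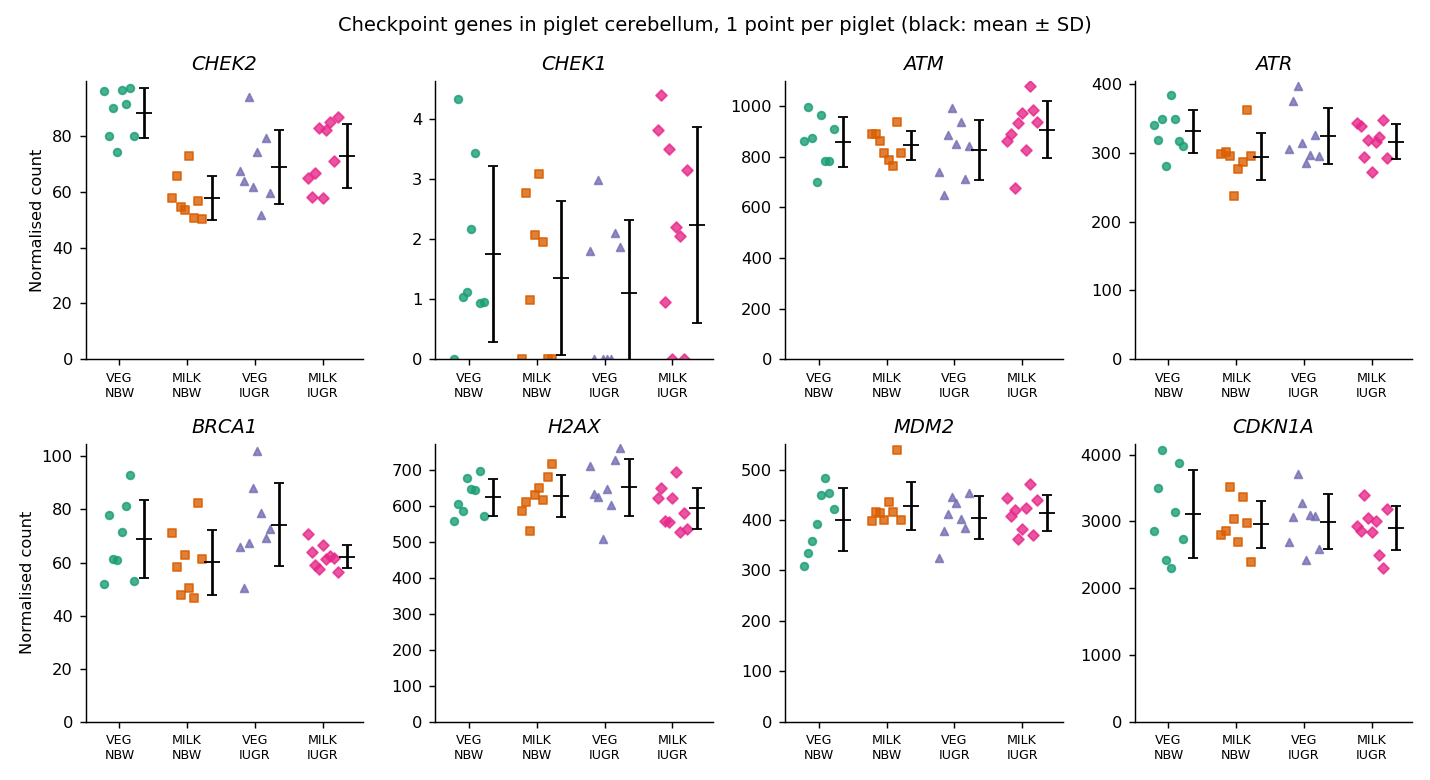
Normalised count (vertical axes, from 0) of the 8 checkpoint genes in VEG-NBW, MILK-NBW, VEG-IUGR and MILK-IUGR piglets; each coloured point is 1 of 33 piglets and the black bars are the mean ± SD. CHEK2 is the gene whose MILK-NBW points, 50.4 to 73.1, all lie under its VEG-NBW points, while the points of the other 7 genes overlap between these groups and CHEK1 is at 0 in 10 piglets.

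In the 33 libraries, the spread of CHEK2 within the NBW groups was about as small as counting alone gives. CHEK2 was chosen for a difference between these groups, which favours a small spread within them, so nothing is read from it. The SD between piglets was 8.95 in VEG-NBW, where the Poisson error of the counts is 9.43, and 7.82 in MILK-NBW, where it is 7.66. In the IUGR groups the SD was 1.62 times (VEG-IUGR) and 1.36 times (MILK-IUGR) the counting error. Over all 36 libraries the SD of CHEK2 was 3.19 times the counting error in VEG-NBW and 2.75 times in MILK-NBW. For BRCA1, with counts near those of CHEK2, the ratio in the 33 libraries was 0.56 to 1.84. For ATM it was 2.01 to 4.15, for ATR 1.45 to 2.27 and for CDKN1A 6.18 to 11.7, so these genes varied between piglets by more than counting gives. Their counts are higher, which makes counting error a smaller part of the spread, so their ratios cannot be set against that of CHEK2.

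The 3 libraries left out bear on CHEK2 more than on most partners. Scaled over all 36 libraries, piglet 202 of VEG-NBW had a CHEK2 value of 178 and piglet 213 of MILK-NBW 115, both above the highest of the other 33 (95.4), and piglet 210 of VEG-IUGR had 0 counts. With piglet 213 kept, the MILK-NBW group overlaps VEG-NBW, and the log2 fold change of CHEK2 was -0.45. With all 36 libraries, in which the high piglets 202 and 213 stand on both sides, it was -0.61. The same comparison for VEG-IUGR relative to VEG-NBW moved from -0.35 to -0.68. That for MILK-IUGR relative to MILK-NBW moved from 0.33 to 0.17, both with piglet 213 kept and with all 36 libraries. Within IUGR piglets the diet difference of CHEK2 was 0.24 over all 36.

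CHEK2 lies on chromosome 14 at 45699833-45967350 (Sscrofa11.1, RefSeq annotation). The span overlaps TTC28, a neighbouring protein-coding gene, and holds LOC100155267, a short protein-coding model whose counts were not analysed here. It ends 109 bases from HSCB, which encodes a mitochondrial iron-sulfur cluster chaperone. TTC28 and HSCB were picked by position, to see whether the reads around CHEK2 moved with it. VEG-NBW piglets had a normalised TTC28 count of 643 ± 145 (SD, n = 8), and MILK-NBW piglets one of 638 ± 78.8 (SD, n = 8). The log2 fold change was -0.01 for TTC28 (SE 0.11, edgeR adjusted p = 0.990) and -0.12 for HSCB (SE 0.13, edgeR adjusted p = 0.864). Across the 33 piglets CHEK2 had a Pearson r of 0.09 with TTC28 and 0.04 with HSCB. Neither neighbour passed the test or stood close to CHEK2 from piglet to piglet.

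None of the 6 partners that could be tested differed between the diets past the threshold. In edgeR's quasi-likelihood test 0 of the 6 had an adjusted p under 0.05 for MILK-NBW relative to VEG-NBW, where 0% of all 15356 genes did. At an unadjusted p under 0.05 there was 1 of 6, ATR, where 6.67% of all genes reached that level. Over the 7 other comparisons (the diets within IUGR, the birth weights within each diet, the interaction, both main effects and sex) the count of adjusted calls was also 0, and so it was in each of the 10 alternative fits that gave the comparison, DESeq2 and limma voom among them. At an unadjusted p under 0.05 there were 0 of 6 within IUGR piglets (3.9% of all genes), for the birth weights on VEG (2.29%) and on MILK (6.24%) and for the interaction (6.09%). The median log2 fold change of the 6 was -0.04, against 0.00 for all genes.

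ATR, the kinase that responds to single-stranded DNA at stalled forks, came nearest to CHEK2. Its normalised count was 281 at the lowest, 330 at the median and 383 at the highest in VEG-NBW, and 238, 295 and 362 in MILK-NBW. The groups overlapped, and the MILK-NBW piglet was the lower one in 81.2% of the pairs. The log2 fold change was -0.17 (SE 0.08, unadjusted p = 0.0397, adjusted p = 0.738 in edgeR; exact two-sided permutation p = 0.0418). Within IUGR piglets ATR ranged from 285 to 396 (median 310) on VEG and from 272 to 348 (median 319) on MILK, with a log2 fold change of -0.04 (SE 0.08, edgeR adjusted p = 0.996). The difference between these 2 diet effects was 0.13 (SE 0.11, edgeR adjusted p = 0.824), so a diet effect on ATR that depends on birth weight was not shown. With piglet 213 kept, the unadjusted p of ATR in NBW piglets was 0.127.

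ATM, the kinase that responds to double-strand breaks and the usual activator of CHK2, had values of 701 to 1000 (median 869) in VEG-NBW and 763 to 937 (median 839) in MILK-NBW. The MILK-NBW values lay inside the VEG-NBW range. Diet gave ATM a log2 fold change of -0.02 (95% interval -0.19 to 0.15, edgeR adjusted p = 0.971). In IUGR piglets ATM ranged from 649 to 994 (median 849) on VEG and from 677 to 1079 (median 935) on MILK. This gave a log2 fold change of 0.13 (95% interval -0.03 to 0.30, edgeR adjusted p = 0.996).

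BRCA1, the repair protein that CHK2 phosphorylates, had lower means on the MILK diet at both birth weights, without passing the adjusted threshold. Its normalised count was 51.8 to 92.8 (median 66.5) in VEG-NBW and 46.8 to 82.5 (median 59.8) in MILK-NBW. In VEG-IUGR it was 50.2 to 102.0 (median 70.9), and in MILK-IUGR 56.6 to 70.7 (median 61.8). MILK-IUGR piglets were the closest together, with an SD of 4.42 that is under their counting error of 7.89. The log2 fold change for diet was -0.19 (SE 0.14, edgeR adjusted p = 0.810) in NBW and -0.26 (SE 0.14, edgeR adjusted p = 0.996) in IUGR piglets. The exact two-sided permutation test within IUGR piglets gave p = 0.0476, with the MILK piglet lower in 81.9% of the pairs. Over all 36 libraries this call was lost and the difference of the mean log2 CPM turned, from below 0 to 0.35 (exact permutation p = 0.976), with piglet 210 of VEG-IUGR at 0 counts, while the MILK piglet was lower in 72.8% of the pairs. In the edgeR fit of all 36 the log2 fold change in IUGR piglets was -0.10. Averaged over the birth weights, MILK minus VEG was -0.23 (SE 0.10, unadjusted p = 0.0259, edgeR adjusted p = 0.985), where 4.26% of all genes had an unadjusted p under 0.05. Part of the BRCA1 span on chromosome 12 (19788087-19854515) is shared with NBR1, and reads in the overlap could not be checked here.

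H2AX, the histone variant phosphorylated next to a break, was level between the NBW groups. Values ran from 559 to 697 (median 625) in VEG-NBW and from 531 to 718 (median 623) in MILK-NBW, with a log2 fold change of 0.00 (95% interval -0.14 to 0.15, edgeR adjusted p = 0.995). In IUGR piglets the range was 509 to 761 (median 639) on VEG and 527 to 696 (median 580) on MILK. Here the log2 fold change was -0.13 (95% interval -0.27 to 0.01, edgeR adjusted p = 0.996).

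MDM2 and CDKN1A, which p53 transcribes, showed no diet difference past the threshold. MDM2 ranged from 309 to 484 (median 406) in VEG-NBW and from 399 to 540 (median 415) in MILK-NBW, with a log2 fold change of 0.11 (95% interval -0.07 to 0.28, edgeR adjusted p = 0.823). CDKN1A ranged from 2308 to 4074 (median 2998) in VEG-NBW and from 2398 to 3508 (median 2916) in MILK-NBW, with a log2 fold change of -0.06 (95% interval -0.27 to 0.15, edgeR adjusted p = 0.915). The groups overlapped for both genes, MDM2 from 399 to 484 only and CDKN1A over the whole MILK-NBW range. In IUGR piglets the log2 fold changes were 0.03 for MDM2 and -0.05 for CDKN1A.

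The IUGR comparison of the partners moved when the libraries left out were kept, piglet 210 of VEG-IUGR among them. In the edgeR fit of all 36 libraries the diet difference within IUGR piglets was 0.13 for ATR, 0.05 for H2AX and 0.08 for CDKN1A, each below 0 without the 3 libraries, and 0.28 for ATM and 0.20 for MDM2. None of these passed the adjusted threshold (smallest adjusted p = 0.869 over the 10 alternative fits). On mean log2 CPM, where a library at 0 counts weighs more, the difference over all 36 was 0.78 for ATR, 0.80 for H2AX and 0.88 for MDM2 (exact permutation p = 0.668, 0.944 and 0.317).

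CHEK1, the effector kinase of the ATR branch, was nearly absent from the counts. Its normalised count was 0 to 4.34 (median 1.07) in VEG-NBW and 0 to 3.09 (median 1.46) in MILK-NBW, and 0 to 2.97 (median 0.902) in VEG-IUGR and 0 to 4.40 (median 2.19) in MILK-IUGR. Every group held both piglets with no count and piglets with a few. In the fit without a filter on low counts the log2 fold change for MILK-NBW relative to VEG-NBW was -0.32, with a 95% interval of -1.83 to 1.18 that spans both directions.

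**Figure D2:**
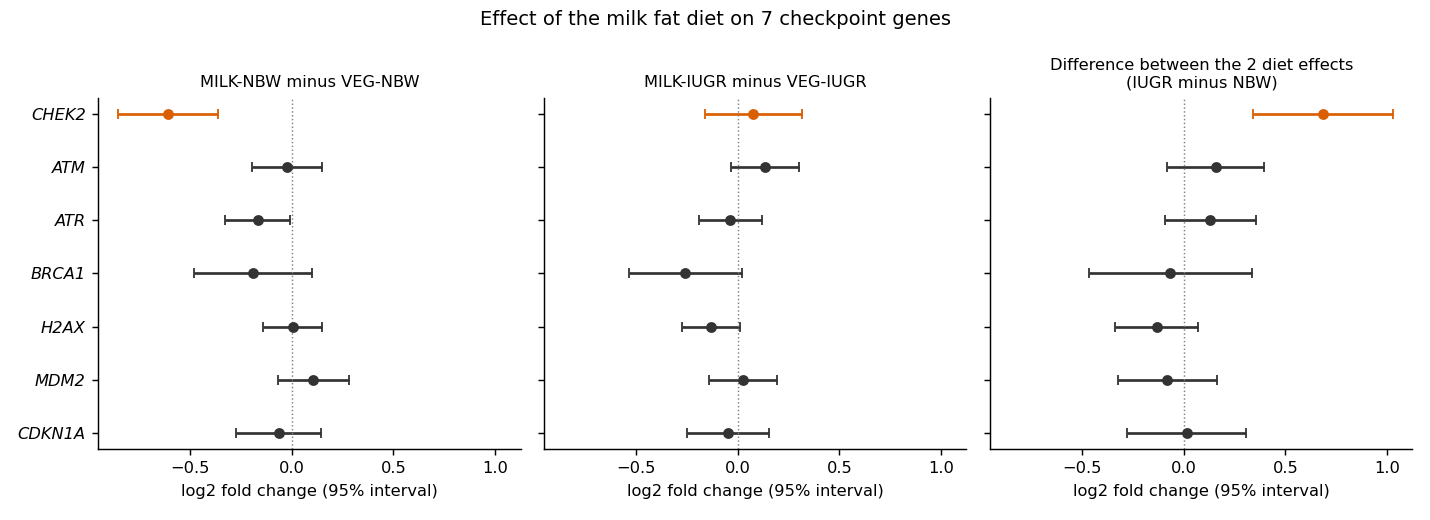
Log2 fold change with its 95% interval (horizontal axes) of 7 checkpoint genes for the MILK relative to the VEG diet in NBW piglets (left), in IUGR piglets (middle) and for the difference between these effects (right). In NBW piglets the intervals of the 6 partners (black) lie between -0.48 and 0.28, and CHEK2 (orange) is shown as a description without a test.

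The 95% intervals in NBW piglets limit how large a diet difference in a partner these piglets allow. For ATM, H2AX, MDM2 and CDKN1A the lower ends were -0.19, -0.14, -0.07 and -0.27. For ATR the interval was -0.33 to -0.01 and for BRCA1 -0.48 to 0.10. A difference below 0 remains inside each of the 6 intervals.

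Between IUGR and NBW piglets on the same diet, no partner passed the test either. On the VEG diet the log2 fold changes of the 6 ran from -0.06 (CDKN1A) to 0.11 (BRCA1), and on the MILK diet from -0.07 (H2AX) to 0.10 (ATM and ATR). For CHEK2 the same comparisons gave -0.35 and 0.33, in opposite directions. Between males and females the 6 partners differed by -0.05 (CDKN1A) to 0.08 (H2AX) on the log2 scale, and 0 of the 6 passed the adjusted threshold, where 0.163% of all genes did. The interaction of the 6 ran from -0.13 (H2AX) to 0.16 (ATM).

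Whether the partners follow CHEK2 was asked piglet by piglet on log2 CPM, with 100000 permutations of the piglets. Over all 33 piglets the values include the NBW difference for which CHEK2 was chosen, so they are given with no p, and the test is that with the group means and sex removed. ATR had the closest relation, with a Pearson r of 0.46 and a Spearman rho of 0.47. Of the 15355 other genes 0.944% had a higher r with CHEK2 than ATR, in these pooled values that include the difference used for the choice. In the same pooled values 9.87% of all genes had an unadjusted p under 0.05 with CHEK2 and 0% an adjusted one, and nothing is read from these shares for the same reason. Without the 2 piglets whose CHEK2 lies farthest from the median (224 and 234), r was 0.44.

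With the group means and sex removed, r between CHEK2 and ATR was 0.31 and did not pass the test (permutation p = 0.0762, adjusted p = 0.784). Of the 15355 other genes 4.80% then had a higher r with CHEK2 than ATR. Within groups it was 0.76 in VEG-NBW (n = 8) and 0.54 in VEG-IUGR (n = 8), but 0.04 in MILK-NBW (n = 8) and 0.02 in MILK-IUGR (n = 9). Both groups on the VEG diet were thus positive and both on the MILK diet near 0 by Pearson r. Spearman rho was 0.57 in VEG-NBW, 0.50 in VEG-IUGR, 0.21 in MILK-NBW and -0.07 in MILK-IUGR. A difference between the diets in this relation was not tested, and each r rests on 8 or 9 piglets.

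For the other partners no relation with CHEK2 passed the test. Pooled, with no test, Pearson r was 0.12 for CDKN1A, 0.11 for BRCA1, 0.07 for ATM, -0.09 for MDM2 and -0.09 for H2AX. Spearman rho ran from -0.09 to 0.12. Each of these 5 values of r lies within the middle 95% of the pooled r of all genes, which runs from -0.38 to 0.40. Pooled values include the difference for which CHEK2 was chosen, so nothing is read from this. CHEK1 had an r of 0.32, or 0.34 with the group means and sex removed (permutation p = 0.0541), but with 0 to 4 counts it is too sparse for this relation to be read. With the group means and sex removed, the r of the 5 ran from -0.08 (H2AX) to 0.11 (MDM2), and the smallest permutation p was 0.527 (MDM2).

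**Figure D3:**
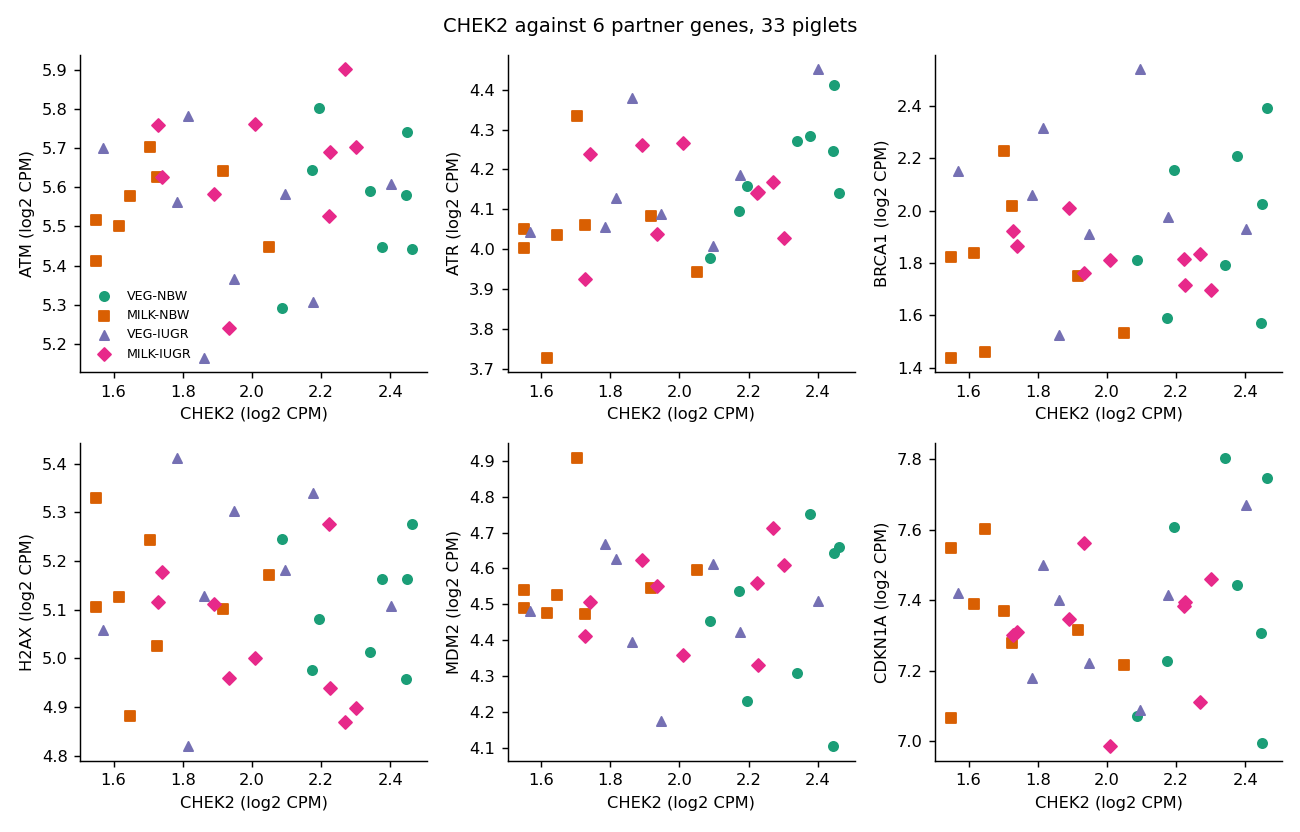
Log2 CPM of 6 partner genes (vertical axes) against log2 CPM of CHEK2 (horizontal axes) in 33 piglets, with colour and shape for the 4 groups. The ATR panel slopes upward, with r = 0.46, and the other 5 panels show no slope past their scatter, with r from -0.09 to 0.12.

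The partners were also loosely tied to each other. Among the 21 pairs of the 7 genes with enough counts, r ran from -0.45 (ATM with H2AX) to 0.46 (CHEK2 with ATR), and these values are given as a description of pairs that share genes and libraries. MDM2 and BRCA1 had an r of 0.35, or 0.50 with the group means and sex removed. CDKN1A and MDM2, both targets of p53, had an r of -0.06.

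The genes whose level was most like that of CHEK2 across the 33 piglets were not checkpoint genes by name. The 5 with the highest Pearson r were ZNF317 (0.63), NEURL2 (0.63), NECAB3 (0.60), NFE2L3 (0.59) and PPIP5K2 (0.59). The 3 with the lowest were PGAM1 (-0.61), KLHL25 (-0.61) and PPP1R1B (-0.59). Their Spearman rho ran from 0.57 to 0.64 and from -0.67 to -0.59, and with the group means and sex removed r was 0.41 to 0.60 and -0.57 to -0.52. These genes were picked for their r, which includes the difference between groups, and it is given with no test.

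The wider pathway was described through 7 lists of 118 genes, of which 102 were matched to an identifier and 96 passed the filter. In MILK-NBW relative to VEG-NBW piglets, 0 of the 96 passed the adjusted threshold in edgeR. At an unadjusted p under 0.05 there were 6 lower and 2 higher (8.33% in all), where 4.58% of all genes were lower and 2.09% higher. Of all genes 6.67% reached that level in either direction, so the lists lie near the background.

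Damage sensors and mediators, a list that includes proteins that load or activate ATM and ATR, held 5 of these genes, all lower, of 19 tested. Of all genes, 4.58% were lower at an unadjusted p under 0.05. For TOPBP1, which activates ATR, VEG-NBW piglets had 1193 ± 67.8 (SD, n = 8) normalised counts and MILK-NBW piglets 1092 ± 92.7 (SD, n = 8), a log2 fold change of -0.12 (SE 0.05, edgeR adjusted p = 0.721). For RIF1, which steers the choice of break repair, these were 807 ± 136 (SD, n = 8) and 677 ± 94.8 (SD, n = 8), a log2 fold change of -0.25 (SE 0.11, edgeR adjusted p = 0.721). The other 3 were RAD17, ETAA1 and NBN, with log2 fold changes of -0.17, -0.19 and -0.16 (named because they complete this count). The median of the 19 was -0.06, with 12 below 0 and 7 above. Over all 36 libraries 0 of the 19 had an unadjusted p under 0.05 in NBW piglets, with a median of -0.11, so none of these 5 kept that level.

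NBN, a subunit of the complex that brings ATM to breaks, was lower on MILK in NBW and higher on MILK in IUGR piglets by its means. In NBW piglets it had 473 ± 48.7 (SD, n = 8) normalised counts on VEG and 422 ± 31.7 (SD, n = 8) on MILK. In IUGR piglets it had 427 ± 50.6 (SD, n = 8) on VEG and 477 ± 55.6 (SD, n = 9) on MILK. The interaction was 0.32 (SE 0.11, unadjusted p = 0.00554, edgeR adjusted p = 0.784). RIF1 had an interaction of 0.33 (SE 0.15) with the same adjusted p. In this list 3 genes (NBN, RIF1 and TOPBP1) had an unadjusted p under 0.05 for the interaction, all positive, where 3.63% of all genes were. Over all 36 libraries 0 of the 19 were positive at that level and 1 was negative.

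Of 13 genes of homologous recombination, the repair route of BRCA1, 1 was lower at an unadjusted p under 0.05, where 4.58% of all genes were. It was RAD51C (log2 fold change -0.21, SE 0.10, edgeR adjusted p = 0.735). FANCI followed with -0.19 (SE 0.10, edgeR adjusted p = 0.738). For the interaction RAD51C had 0.21 (SE 0.14) and RAD51B -0.24 (SE 0.21), neither past an unadjusted p of 0.05. The median of the 13 was -0.07 in NBW and -0.04 in IUGR piglets.

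No gene around p53 passed the adjusted threshold. At an unadjusted p under 0.05, 2.09% of all genes were higher in MILK-NBW than in VEG-NBW. Of 10 regulators of p53 this held for PML, a nuclear body protein that takes part in p53 activation. VEG-NBW piglets had 318 ± 31.2 (SD, n = 8) normalised counts and MILK-NBW piglets 376 ± 44.6 (SD, n = 8) (log2 fold change 0.25, SE 0.09, edgeR adjusted p = 0.721), with an interaction of -0.36 (SE 0.13, edgeR adjusted p = 0.784). HIPK2, a kinase that phosphorylates p53, had 0.22 (SE 0.15), and MDM4, an inhibitor of p53, had an interaction of 0.23 (SE 0.17). Of 20 p53 target genes, 0 had an unadjusted p under 0.05 in NBW piglets, in IUGR piglets or for the interaction, and their median log2 fold change was 0.01 in both diet comparisons. The smallest p in NBW piglets belonged to the sestrins SESN2 (-0.14, SE 0.11) and SESN1 (-0.11, SE 0.08), and for the interaction to BBC3 (-0.24, SE 0.14) and AEN (-0.16, SE 0.11).

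The substrates of the checkpoint kinases and other genes of mitotic entry had 0 of 10 with an unadjusted p under 0.05 in the same 3 comparisons. PKMYT1, a kinase that holds CDK1 inactive, had 0.23 (SE 0.11) and CCNE2, a cyclin of the G1/S transition, -0.22 (SE 0.12) in NBW piglets. E2F1 had an interaction of -0.23 (SE 0.15) and CDK2 of -0.16 (SE 0.14). Of 7 histone variant genes other than H2AX, 0 reached that level either. H2AZ1 had -0.12 (SE 0.08) and H3-3A 0.04 (SE 0.06) in NBW piglets, and the interaction was -0.15 (SE 0.14) for H2AZ2 and -0.07 (SE 0.07) for MACROH2A1.

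**Figure D4:**
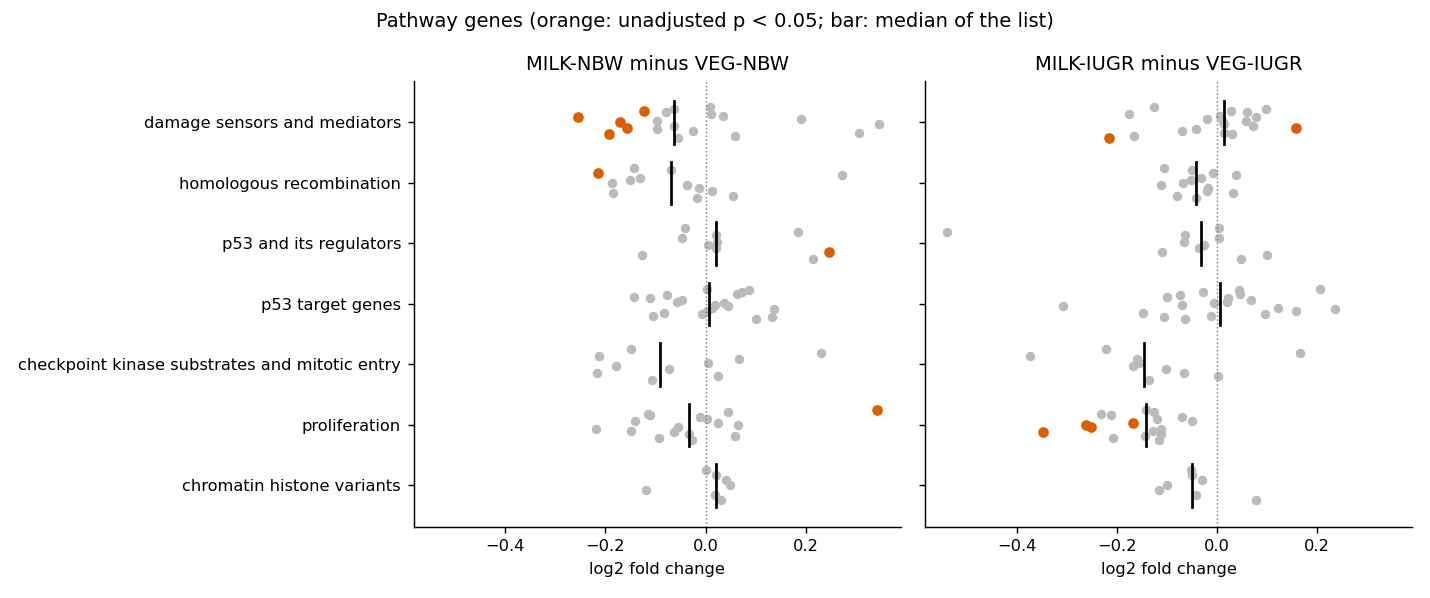
Log2 fold change (horizontal axes) of the 96 genes of 7 pathway lists for the MILK relative to the VEG diet in NBW (left) and IUGR piglets (right); each point is a gene, orange where its unadjusted p is under 0.05, and the bar is the median of the list. In NBW piglets 5 of 19 damage sensors and mediators are orange on the low side, where 4.58% of all genes were. In IUGR piglets all 17 proliferation genes lie below 0, 4 of them orange, where 3.9% of all genes had such a p.

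No proliferation gene passed the adjusted threshold between the diets. Of 17 tested, TYMS, which makes thymidylate for DNA synthesis, had a log2 fold change of 0.34 in NBW piglets (SE 0.16, edgeR adjusted p = 0.735) and an interaction of -0.48 (SE 0.22, edgeR adjusted p = 0.784). Together with PML it makes up the 2 list genes with a negative interaction at an unadjusted p under 0.05, where 2.46% of all genes had one. MCM6 of the replicative helicase had -0.14 (SE 0.07) in NBW piglets, and MCM3 an interaction of -0.33 (SE 0.18). In IUGR piglets all 17 were below 0 on the MILK diet (median -0.14), where the median of all genes was -0.001. CDC20, MCM2, MCM3 and MCM4 had an unadjusted p under 0.05, where 3.9% of all genes did, and 0 passed the adjusted threshold. Granule progenitor markers had a median of -0.14 in the same comparison, with 7 of 8 below 0, and their summed level ranged from 4271 to 5670 on VEG and from 3019 to 5516 on MILK. The part of these markers in the BRCA1 difference was not tested.

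The mean of the proliferation genes, taken as a score per piglet, had an r of 0.45 with BRCA1 (permutation p = 0.00791, adjusted p = 0.198; Spearman rho 0.47, permutation p = 0.00655). Pearson r was positive within all 4 groups, from 0.13 (VEG-IUGR) to 0.60 (VEG-NBW), and 0.44 without the 2 piglets farthest from the median score (201 and 222). Spearman rho was -0.07 within VEG-IUGR and 0.33 to 0.69 within the other groups. H2AX had an r of 0.35 (permutation p = 0.0426, adjusted p = 0.410) and CHEK2 one of 0.14, or 0.23 with the group means and sex removed (permutation p = 0.199, adjusted p = 0.639). Of all genes 1.67% had an adjusted p under 0.05 with this score, and 0 of the 7 checkpoint genes did.

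Markers of several glial and vascular cell types had higher medians on MILK in NBW piglets, with 0 past the adjusted threshold and groups that overlapped. Of 5 oligodendrocyte markers and 4 markers of oligodendrocyte precursors all were above 0 (median log2 fold change 0.25 and 0.26), with 0 and 1 at an unadjusted p under 0.05, where 6.67% of all genes reached that level. The summed level of the oligodendrocyte markers ran from 150838 to 550839 (median 274388) in VEG-NBW and from 257212 to 553896 (median 373432) in MILK-NBW piglets. For the 6 markers of astrocytes and Bergmann glia it ran from 87363 to 196032 (median 116023) and from 119624 to 159459 (median 149484), with 5 of 6 above 0 (median log2 fold change 0.08). For the 4 endothelial markers it ran from 2553 to 3765 (median 3322) and from 3227 to 4311 (median 3583), with all 4 above 0 (median 0.22) and 1 at an unadjusted p under 0.05. The 9 granule neuron markers had a median of -0.07. The part of the cell types in the CHEK2 and ATR differences was not tested.

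Among the 7 genes, H2AX moved most closely with the quality of the library. Its r with the share of read pairs not assigned to a gene was -0.63 (permutation p = 9e-05, adjusted p = 0.0020 over all genes), and Spearman rho was -0.66 (permutation p = 3e-05). Of all genes 23.7% passed the adjusted threshold for this share, and 1 of the 7 checkpoint genes, H2AX, did. The relation was negative within all 4 groups, from -0.63 (VEG-NBW) to -0.81 (VEG-IUGR), and -0.63 without the 2 piglets farthest from the median share (234 and 215). H2AX was thus lower in piglets with more unassigned reads in each of the 4 groups.

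ATM leaned the other way, with an r of 0.39 (permutation p = 0.0244, adjusted p = 0.0818; rho 0.43, permutation p = 0.0128), and so did CDKN1A, with 0.37 (permutation p = 0.0335, adjusted p = 0.103; rho 0.30, permutation p = 0.0944). For CDKN1A r was 0.13 without piglets 234 and 215, so its relation rests on them. CHEK2 had an r of 0.35 (rho 0.26, no test, as above), which was 0.20 without these 2 piglets. In the IUGR groups, which hold neither of them, r was 0.34 (n = 17). Within groups the r of CHEK2 ran from 0.03 (VEG-IUGR) to 0.56 (MILK-IUGR). For ATR, BRCA1 and MDM2 r was 0.09, -0.09 and -0.25. The share had a median of 28.7% in VEG-NBW, 28.4% in MILK-NBW, 28.2% in VEG-IUGR and 28.3% in MILK-IUGR piglets. None of the 7 genes was related to the total count past the adjusted threshold.

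**Figure D5:**
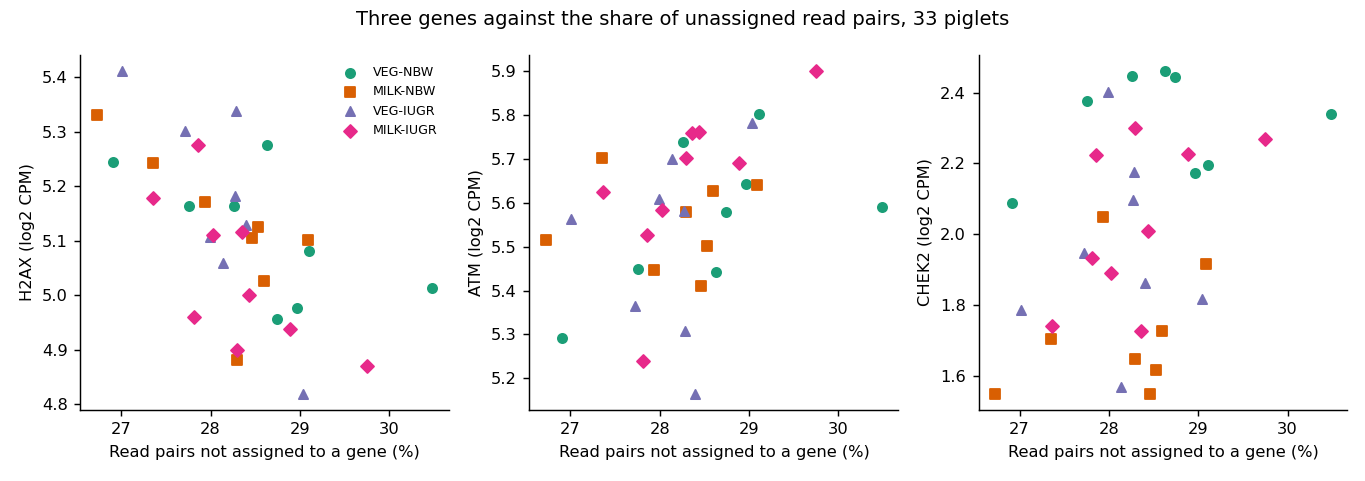
Log2 CPM of H2AX, ATM and CHEK2 (vertical axes) against the percentage of read pairs not assigned to a gene (horizontal axes) in 33 piglets, with colour and shape for the 4 groups. H2AX slopes downward (r = -0.63), ATM upward (r = 0.39), and the CHEK2 relation (r = 0.35) is 0.20 without the 2 piglets farthest from the median share.

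The share of unassigned pairs can also join genes to each other. When it was removed together with the group means and sex, r between CHEK2 and ATR was 0.31 (permutation p = 0.0759), close to its value without this step, and r between CHEK2 and ATM went from 0.03 to -0.10. With all 36 libraries in the correlation, r with CHEK2 was 0.95 for ATR, 0.92 for ATM, 0.91 for MDM2, 0.91 for BRCA1, 0.85 for H2AX and 0.63 for CDKN1A. These values rest on piglet 210, which had 0 counts of CHEK2, ATR, MDM2, BRCA1 and H2AX. Without it, over 35 libraries, r was 0.69 for ATR, 0.56 for ATM and -0.62 for H2AX. In that set piglet 202, with 43.6% of its pairs unassigned, had 2.58 times the median CHEK2 of the 33, 2.12 times the median ATM and 0.394 times the median H2AX.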

How the data were processed

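Per the submitters' processing notes, reads were handled with Trim Galore, HISAT2, HTSeq and DESeq2 on Sscrofa11.1. Strand setting and annotation release are not given in the sources used here. The authors deposited raw counts of read pairs per Ensembl gene, 1 table per piglet, not normalised. The 5 closing rows of each table, for pairs not assigned to a gene, stayed out of library sizes and tests. They count pairs on no feature, ambiguous between genes, of low alignment quality, not aligned or not aligned uniquely. They held 26.7 to 64.3% of the pairs. Of 31907 identifiers, 15029 had a symbol in the gene name table, and 0 pairs of tables were identical.

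Members, gene lists, tests and the rule that left out 3 libraries were chosen with earlier results of these data known. That rule was Dixon's, applied per group to the share of unassigned pairs. Groups and sex came from the labels. Tests on counts used edgeR 4.0.16 in R 4.3.3 (TMM, filterByExpr with a minimum count of 10, quasi-likelihood F test, sex as covariate, 1 model of 4 groups; main effects without interaction), with Benjamini-Hochberg adjustment over 15356 genes at 0.05. Standard errors are the log2 fold change over the root of F. Normalised counts are counts over DESeq2 1.42.0 size factors. Log2 CPM used a prior count of 2. Single genes were tested by exact permutation of 2 groups, and correlations by 100000 permutations (numpy 2.4.6). The edgeR fit and the correlation test were tried on simulated data. A planned test of CHEK2 within IUGR piglets and planned tests of its pooled correlations are not given, since the choice of CHEK2 used these values. Each piglet is 1 library.

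Named genes were all 8 members. From each list they were the 2 smallest unadjusted p for MILK-NBW relative to VEG-NBW and for the interaction, as no list gene passed the adjusted threshold. For likeness to CHEK2 they were the 5 highest and 3 lowest r. TTC28, HSCB, NBR1, RAD17, ETAA1, CDC20, MCM2 and MCM4 were named after values were seen or by position. Alternatives were all 36 libraries, other scalings, filters and covariates, DESeq2, and limma 3.58.1 voom with quality weights. No sequence is shown, since none was used here.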

Additional observations from a re-analysis of the deposited data

Results flagged for a closer look

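Among 32 sets of a gene and a group, 1 value stood apart from its group by Dixon's gap over range. MDM2 was 540 normalised counts in piglet 230 of MILK-NBW, above the other 7 piglets. Chance flags about 1 in 20 such groups.

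The libraries left out of the comparisons held several checkpoint genes above all 33 others, on the scale of all 36 libraries. In piglet 202 (VEG-NBW) the normalised count was 178 for CHEK2, 5.48 for CHEK1, 1755 for ATM, 508 for ATR and 97.3 for BRCA1. In the same library CDKN1A (1492) and H2AX (237) were below the lowest of the 33, which were 2231 and 497. In piglet 213 (MILK-NBW) it was 115 for CHEK2, 5.96 for CHEK1 and 1112 for ATM. The CHEK1 values rest on 4 and 6 counts.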

How the results depend on the processing

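No partner of CHEK2 passed the adjusted threshold in any comparison under any of 10 alternative fits (446 values, smallest adjusted p = 0.327, for ATR in NBW piglets). In the main fit 0 of all 15356 genes passed between the diets in NBW piglets, and the fits share most of their piglets. These values therefore do not show that the partners are unchanged. CHEK2 was chosen on values of these same piglets, so its direction over the fits is a description and lends no support. It kept this direction for MILK-NBW relative to VEG-NBW in all 10 fits (-0.62 to -0.45). For the interaction it did so in 9 of 9 (0.53 to 0.85) and within IUGR piglets in 10 of 10 (0.06 to 0.24). The smallest changes did not keep theirs: H2AX in NBW piglets was above 0 in 3 of 10. All 36 libraries moved several counts. Partners with an adjusted p under 0.05 for the pooled r with CHEK2, which includes the difference CHEK2 was chosen for, rose from 0 to 6, and checkpoint genes so related to the proliferation score from 0 to 7. Without piglet 210, a set chosen after seeing the data, these counts were 3 and 1. Over all 36 libraries r turned from below 0 to 0.91 for MDM2 and 0.85 for H2AX with CHEK2, and to 0.77 for CDKN1A with the score. Single-gene permutation tests under 0.05 went from 1 to 0 in NBW and from 1 to 0 in IUGR piglets. List genes with an unadjusted p under 0.05 went from 8 to 0 in NBW piglets, from 5 to 2 for the interaction and from 6 to 2 in IUGR piglets, and the cause was not tested. The fits with piglet 213 kept or with the share of unassigned pairs as a covariate were also chosen after seeing the data. No paired analysis was possible because each piglet number is its own animal and the labels give no litter. Depth limits CHEK1 and, within groups, CHEK2 and BRCA1.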
